A study of Homo sapiens with 118 samples.

Results

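Tacedinaline, a benzamide inhibitor of histone deacetylases, was set against vorinostat, a hydroxamate inhibitor, in HepaRG cells at the highest concentration given of each. The comparison took 6 of the 118 libraries of the series, namely 3 of tacedinaline at 44 µM and 3 of vorinostat at 23.5 µM. Both groups carried the concentration label C5 and came from the plate marked E, and the members were taken from these labels without use of any measured value. Each group was also read against 3 libraries of its own lowest concentration, labelled C1, which was 1.143 µM for tacedinaline and 0.405 µM for vorinostat. The C5 concentrations were not equal (a molar ratio of 1.872), so pairs at nearly equal concentrations were examined as well. The C1 groups were exposed cells and not solvent controls, which were not analysed here.

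The series tested 8 deacetylase inhibitors, each at 5 concentrations, and asked whether a set of transcripts can mark this class of chemical in HepaRG cells. HepaRG is a human liver progenitor line from a single hepatocellular tumour, which differentiates in culture into hepatocyte-like and biliary-like cells. Cells bought in the differentiated state were exposed for 72 h with daily renewal of the chemical, and lysates were read with TempO-Seq, in which pairs of short detector probes are ligated on the target RNA and the ligated pairs are counted. The 3 replicates of each group were 3 production batches of the same line, so all p-values below describe the spread between batches of 1 line and not between donors.

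Zinc-dependent histone deacetylases remove acetyl groups from lysines of histones and of many other proteins, and several of them work inside corepressor complexes at gene promoters. Vorinostat (suberoylanilide hydroxamic acid, SAHA) binds the catalytic zinc through a hydroxamic acid and inhibits deacetylases of several classes, including the mainly cytoplasmic tubulin deacetylase HDAC6. Tacedinaline (CI-994) carries an ortho-aminoanilide in that place. Benzamides of this kind bind slowly and favour the nuclear class I enzymes HDAC1, HDAC2 and HDAC3. Inhibitors of both types are known to stop proliferating cells and to change the expression of differentiated cells widely.

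The 6 C5 libraries held 1739105, 2523787 and 2069597 counts for tacedinaline and 1061359, 1879287 and 1516130 for vorinostat (batches 1, 2 and 3), and the 12 libraries of both concentrations ranged from 1061359 to 4134455. Totals of the C5 groups overlapped (exact two-sided permutation test, p = 0.2). The tacedinaline libraries had more features with at least 5 counts, 12214 ± 435 (SD, n = 3) against 11056 ± 583 (exact permutation test, p = 0.1, the smallest value that 3 against 3 allows), and the part of depth in the differences below was not tested beyond the thinned counts described at the end. A feature is 1 probe pair, and genes may have several. Among defining markers, ALB, TTR and FGB of hepatocytes were detected in all 12 libraries, the endothelial marker CDH5 and the blood marker PTPRC were at 0 counts in all 12, and the biliary marker EPCAM was above 0 in 1 library. Levels are given as CPM, read counts scaled to a common library size, and differences on the log2 scale as fitted by edgeR.

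Both chemicals changed the transcriptome widely and largely in one direction together. Of 11679 features tested, 4512 (38.6%) were called in tacedinaline at C5 against C1 (2131 rising, 18.2%, and 2381 falling, 20.4%). Features counted as called when edgeR's quasi-likelihood test gave an adjusted p under 0.05, after Benjamini-Hochberg, together with a change of at least 1.5-fold. Vorinostat gave 5435 calls (46.5%, 2548 rising, 21.8%, and 2887 falling, 24.7%). In all, 3497 features (29.9% of those tested) were called in the same direction under both, 1606 rising and 1891 falling, which was 77.5% of the tacedinaline calls and 64.3% of the vorinostat calls. The median absolute change of these shared features was 1.44 in tacedinaline and 1.63 in vorinostat. Across all features the changes of the 2 chemicals, which share no library, correlated with r = 0.82, and with r = 0.68, 0.74 and 0.71 within batches 1, 2 and 3. This correlation is across features of libraries made on 1 plate and from the same batches, and is a description only.

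**Figure D1:**
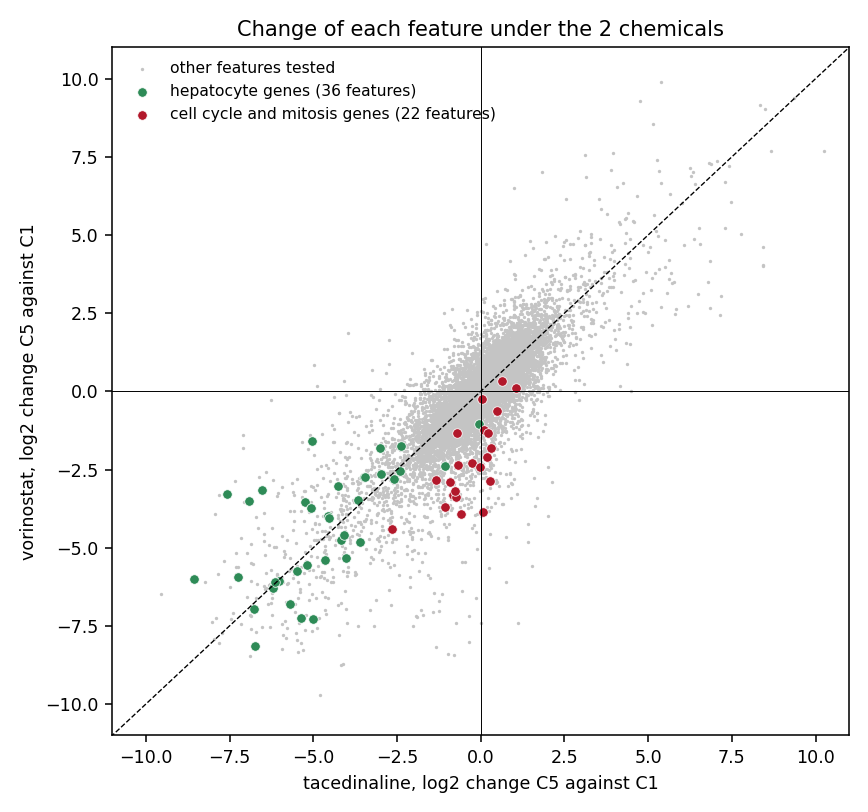
Change of each of the 11679 features from C1 to C5 under tacedinaline (x axis, log2) and vorinostat (y axis, log2), with cell cycle and mitosis genes in red, hepatocyte genes in green and the diagonal of equal change dashed. Hepatocyte genes lie far down along the diagonal, with medians of -4.82 and -4.02, while the cell cycle genes lie below it, with medians of -0.15 for tacedinaline and -2.38 for vorinostat.

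The strongest shared changes illustrate the common part. CGA, the alpha subunit of the glycoprotein hormones, had 0 counts in all 6 C1 libraries and reached 22.3, 45.2 and 36.3 CPM with tacedinaline and 42.9, 41.2 and 21.9 CPM with vorinostat. The C5 values of the chemicals overlapped, and against the detection floor of 3 counts per library CGA was at least 23.8-fold higher at C5 in tacedinaline and at least 30.3-fold higher in vorinostat. SYT11, a vesicle trafficking protein of neurons, and SCG2, a secretory granule protein, also rose in both. SCG2 stood at 84.4, 60.5 and 67.1 CPM in tacedinaline C5 and at 38.5, 56.7 and 51.5 CPM in vorinostat C5, from under 3 CPM in every C1 library. The 3 tacedinaline values of SCG2 were the highest, but the difference between chemicals of 0.52 (SE 0.30) did not pass the test. Shared falls were led by liver enzymes, namely ADH4 (alcohol dehydrogenase), AGXT2 (an aminotransferase), GLYAT (glycine conjugation) and CYP3A4 (drug oxidation). ADH4 went from 241, 219 and 165 CPM at C1 of tacedinaline and 94.6, 137 and 121 CPM at C1 of vorinostat to under 2 CPM, at most 3 counts, in all 6 C5 libraries.

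Against this common background, 922 features (7.89%) were called between the 2 C5 groups. Tacedinaline was higher in 628 (5.38%) and vorinostat in 294 (2.52%). Of the 628 features higher in tacedinaline, 274 had fallen in vorinostat alone, 159 had fallen in both, 73 had risen in tacedinaline alone, 51 had risen in both, 17 had moved in opposite directions, 53 were called in neither response and 1 had fallen in tacedinaline alone. The largest share of these calls was thus of transcripts that fell with vorinostat and were not called with tacedinaline. Of the 294 features higher in vorinostat, 79 had risen in vorinostat alone, 65 had fallen in tacedinaline alone, 54 had risen in both, 49 had fallen in both and 47 were called in neither. The 3 against 3 values did not overlap in 589 of the 628 and in 265 of the 294, beside 12.1% and 10.8% of all features tested that did not overlap in those directions.

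The difference between the responses was also tested directly, as the change of tacedinaline from C1 to C5 minus that of vorinostat. This contrast called 567 features (4.85%), 362 (3.1%) of them with the higher change in tacedinaline and 205 (1.76%) with the higher change in vorinostat. Of the calls between C5 groups, 294 of the 628 and 99 of the 294 were called here too. Between the C1 groups 89 features (0.762%) were already called, 66 (0.565%) higher in tacedinaline and 23 (0.197%) in vorinostat, and they included 16 of the 628 and 1 of the 294.

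The clearest group was the machinery of DNA replication and mitosis. Of a list of cell cycle and mitosis genes 22 of 30 features in the table passed the filter on low counts, and of these 15 were higher in tacedinaline C5 and 0 were higher in vorinostat C5, with a median difference of 1.60 beside 0.01 over all features. Over all features 5.38% and 2.52% were called in these directions. All 22 of the list had a positive estimate. In vorinostat 18 of the 22 fell from C1 to C5 (median -2.38), beside 24.7% of all features. In tacedinaline 6 fell and 0 rose (median -0.15), beside 20.4% and 18.2% of all features. The difference of the responses was called for 13 of the 22, all in the same direction, beside 3.1% of all features. In bulk lysates such as these, fewer cycling cells and less of each transcript per cell cannot be told apart.

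MKI67, the proliferation antigen of cycling nuclei, stood at 111, 150 and 183 CPM in tacedinaline C5 and at 25.0, 15.5 and 19.96 CPM in vorinostat C5. At C1 it had been at 185, 226 and 257 CPM in tacedinaline and at 301, 273 and 315 CPM in vorinostat. The C5 groups lay far apart, the vorinostat values being the lowest of all 12, and the difference was 2.92 (SE 0.21, adjusted p = 1.99e-11, edgeR with Benjamini-Hochberg adjustment). CDK1, the kinase that drives entry into mitosis, was at 163, 158 and 187 CPM in tacedinaline C5 against 14.3, 40.2 and 42.5 CPM in vorinostat C5. Again no values overlapped, with a difference of 2.32 (SE 0.21, edgeR adjusted p = 1.251e-09), although CDK1 fell in both responses, by 0.77 in tacedinaline and by 3.20 in vorinostat.

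RRM2, the small subunit of ribonucleotide reductase that supplies deoxynucleotides, was at 84.4, 101 and 151 CPM in tacedinaline C5 and at 7.16, 9.79 and 17.4 CPM in vorinostat C5. In tacedinaline its change from C1 was 0.28 (95% interval -0.21 to 0.77) and was not called, and in vorinostat it fell by 2.88. TYMS, thymidylate synthase, behaved otherwise, since it fell strongly in both. It went from 660, 712 and 794 CPM to 101, 111 and 133 CPM in tacedinaline, and from 888, 901 and 947 CPM to 41.1, 34.5 and 53.4 CPM in vorinostat. Its C5 values did not overlap either, and the tacedinaline level was higher by 1.43 (SE 0.16, edgeR adjusted p = 1.17e-07).

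The called members covered several steps of the cycle. Among the replicative helicase subunits MCM3, MCM4, MCM5 and MCM7 were higher in tacedinaline C5, by 1.15 (MCM7) to 2.06 (MCM5). MCM5 was at 124, 99.7 and 123 CPM against 21.5, 23.7 and 37.3 CPM, without overlap. The mitotic cyclins CCNA2 and CCNB1 differed by 1.62 and 2.44, and the chromosome proteins TOP2A and CENPF by 2.47 and 2.49. The mitotic kinases AURKA, AURKB and BUB1 differed by 3.42, 2.03 and 1.89. AURKA was near the detection floor in vorinostat C5, at 0, 0.515 and 1.93 CPM against 3.81, 17.2 and 7.61 CPM in tacedinaline C5. The size of its difference (SE 0.80) is therefore uncertain. CCNB1 overlapped in no library but had a wide spread in vorinostat, with 0, 2.58 and 12.2 CPM against 41.9, 18.3 and 25.9 CPM. The 7 members that did not pass were BIRC5, BUB1B, CCNE2, PCNA, PLK1, CDC25C and MCM6, with differences from 0.07 (CCNE2) to 1.58 (BUB1B). Most of these were counted at low levels in the C5 libraries. PCNA, the replication clamp, was at 39.8, 31.4 and 51.9 CPM in tacedinaline C5 and 12.5, 33.0 and 16.1 CPM in vorinostat C5, so that 1 vorinostat library lay within the tacedinaline range (difference 0.95, SE 0.34, edgeR adjusted p = 0.07305).

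**Figure D2:**
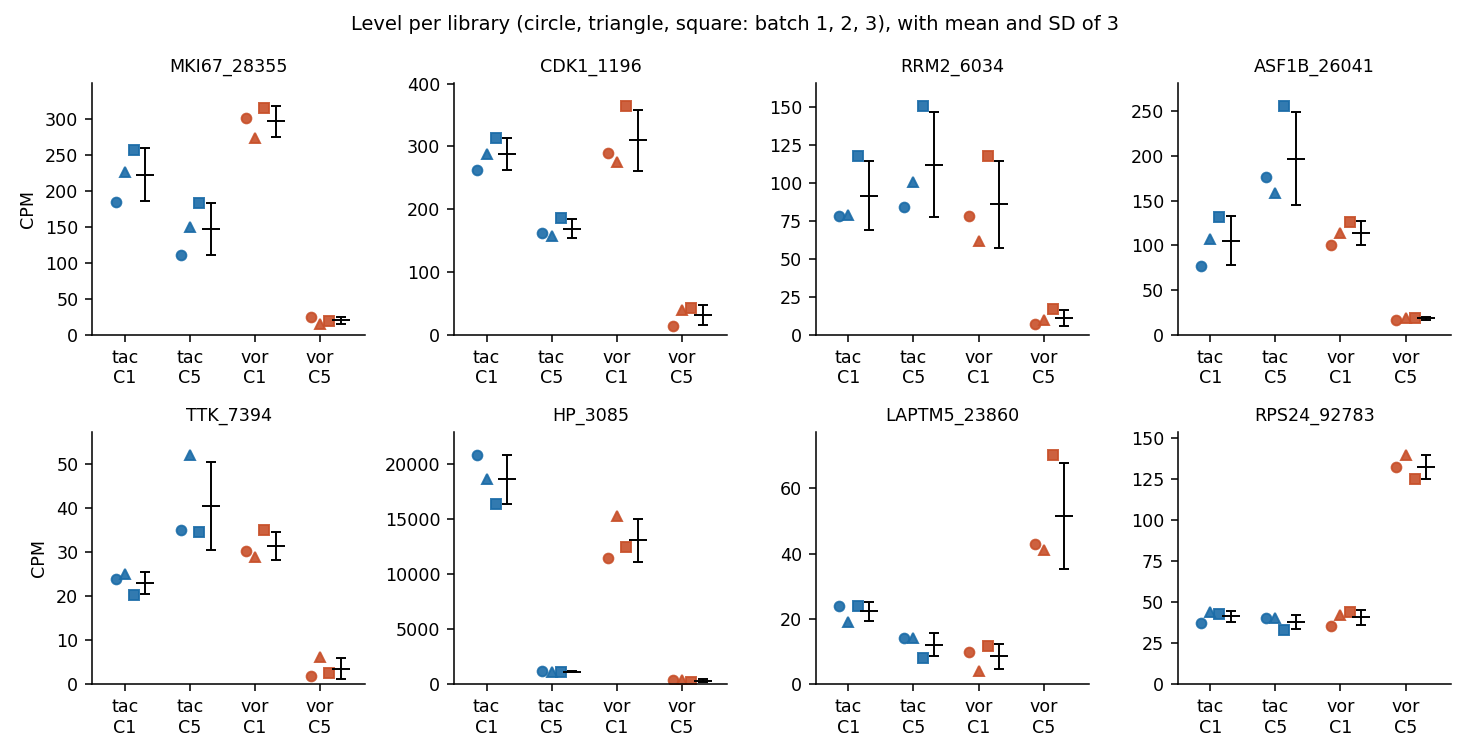
Level in CPM (linear axes from 0) of 8 features in each of the 12 libraries, with tacedinaline (tac) in blue, vorinostat (vor) in red, circles, triangles and squares for batches 1, 2 and 3, and the mean with its SD of 3 libraries beside them. For MKI67, CDK1, RRM2, ASF1B and TTK the vorinostat C5 libraries lie below all others, for HP both C5 groups lie far below C1 with tacedinaline higher, and for LAPTM5 and the RPS24 feature the vorinostat C5 libraries lie above all others.

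Within single batches the list kept its direction. Tacedinaline C5 was higher than vorinostat C5 of the same batch in 22, 20 and 19 of the 22 features for batches 1, 2 and 3, with median differences of 2.28, 1.81 and 1.52. The medians of all features within the batches were 0.01, 0.00 and 0.02.

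The promoters of these genes show what letters the members share. Stretches of 30 bases are printed here for members on both sides of the test, from the RefSeq promoter table of GRCh38.p14, each 5′ to 3′ on the strand of the gene. Capitals mark the cell cycle homology region motif (CHR, letters TTTGAA, or TTCAAA on the other strand), through which the DREAM and MuvB complexes act on late cell cycle genes. The first 3 stretches belong to genes called higher in tacedinaline C5, at chr10:60778453-60778482 (plus strand), chr10:128126435-128126464 (minus strand) and chr17:40418030-40418059 (minus strand), and the others to genes that were not called, at chr16:23678848-23678877 (plus strand) and chr15:40161034-40161063 (plus strand).
CDK1: tagcgcggtgagTTTGAAactgctcgcact
MKI67: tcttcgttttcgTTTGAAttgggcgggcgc
TOP2A: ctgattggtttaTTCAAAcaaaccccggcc
PLK1: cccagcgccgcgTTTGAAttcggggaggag
BUB1B: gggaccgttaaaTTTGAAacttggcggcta

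The second set carries in capitals the CCAAT box (letters CCAAT, or ATTGG on the other strand), which the factor NF-Y binds, in 3 genes of nucleotide supply and histone deposition that were among the largest differences. They lie at chr2:10122661-10122690 (plus strand), chr17:78187081-78187110 (minus strand) and chr19:14136625-14136654 (minus strand).
RRM2: ggggcaccaaagCCAATgggaagggccggg
TK1: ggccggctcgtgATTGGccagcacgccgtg
ASF1B: gcgttggcggtgATTGGccagagggcggag

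In the window from 250 bases before to 50 bases after the annotated start, read on both strands, the CHR letters were found for 7 of the 17 list members with an entry (41.2%), beside 14.8% of the 8497 tested symbols with an entry. The CCAAT letters were found for 15 of the 17 (88.2%), beside 44.3%. The E2F letters GCGGGAA were found for 29.4% of the members, beside 12.6%. Over all symbols called between the C5 groups the shares were lower. They were 22.4% (CHR), 50.2% (CCAAT) and 18% (E2F) for the 482 symbols higher in tacedinaline, and 15.6%, 50.2% and 13.1% for the 237 higher in vorinostat. Of the 7 members with CHR letters, 4 were called between the C5 groups and 3 were not, so called and uncalled members both carried them. A match of letters in this window is a description and not a bound site.

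The 5 concentrations show where the chemicals parted. Summed over the list, tacedinaline was at 2057, 2193 and 2548 CPM at C1, at 1385, 1411 and 1704 CPM at C3 (10.29 µM) and at 1359, 1335 and 1716 CPM at C5 (44 µM). From C3 to C5 the groups overlapped, with means of 1500 ± 178, 1496 ± 218 and 1470 ± 214 CPM (SD, n = 3), so no decline beyond the spread between batches was seen above 10.29 µM. Vorinostat went from 2556, 2433 and 2997 CPM at C1 to 641, 553 and 981 CPM at C4 (10.93 µM) and 359, 409 and 561 CPM at C5 (23.5 µM). The C5 and C4 vorinostat libraries all lay below every tacedinaline library. A large part of the fall in the tacedinaline sum came from 1 gene. From C1 to C5 the mean of TYMS went from 722 to 115 CPM, and that of the sum from 2266 to 1470 CPM. In vorinostat the mean of TYMS went from 912 to 43.0 CPM and that of the sum from 2662 to 443 CPM.

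**Figure D3:**
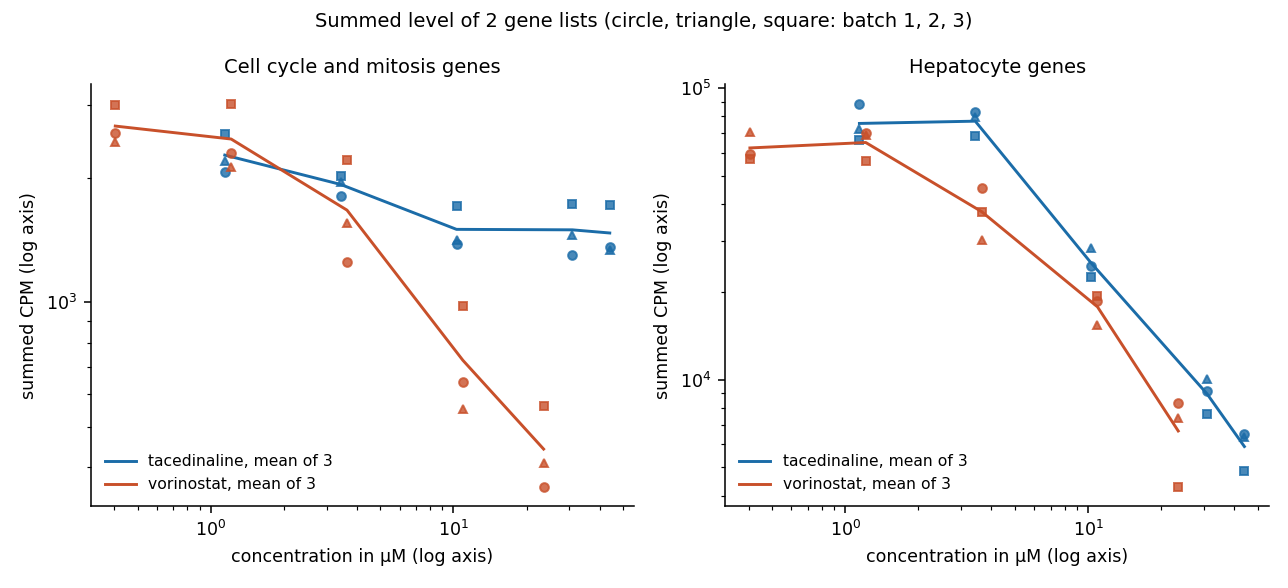
Summed CPM (log axis) of the cell cycle and mitosis list (left) and the hepatocyte list (right) against concentration in µM (log axis) in all 30 libraries of both chemicals, with circles, triangles and squares for batches 1, 2 and 3 and lines through the means of 3. On the left the tacedinaline line levels off near 1500 CPM from 10.29 µM while vorinostat falls to a mean of 443 CPM. The left sums include TYMS, which makes up a large part of the tacedinaline fall (means of 722 CPM at C1 and 115 CPM at C5). On the right the C5 means are 5894 CPM for tacedinaline and 6665 CPM for vorinostat.

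For pairs at nearly equal concentrations, with a molar ratio of 0.9415, 3 pairs were compared in 1 fit of 30 libraries with p-values adjusted over 12796 features and all 3 pairs. At 1.143 and 1.214 µM (tacedinaline C1 and vorinostat C2) 103 features (0.805%) were higher in tacedinaline and 27 (0.211%) in vorinostat. At 3.43 and 3.643 µM (C2 and C3) the counts were 321 (2.51%) and 122 (0.953%). At 10.29 and 10.93 µM (C3 and C4) they were 479 (3.74%) and 134 (1.05%). Of the C5 calls, 229 of the 628 higher in tacedinaline were called the same way in this last pair. For those higher in vorinostat it was 37 of the 294. Of the cell cycle list 0 of 22 features were called in the first pair and 0 in the second, and 11 were higher in tacedinaline and 0 in vorinostat in the third, with medians of 0.00, 0.31 and 1.30. In the third pair the list was led in significance by MKI67 (1.62, SE 0.24) and CDK1 (1.56, SE 0.24), while the helicase subunits MCM3, MCM4, MCM5 and MCM7, which were called at C5, were not called there (0.26 to 0.55). CDC25C, the phosphatase that activates CDK1, was called in this pair and not at C5.

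Related chemicals of the series were read on the same list, each at its own C5 against its own C1. The benzamide mocetinostat had 9 of 22 features falling and 2 rising (21.8% and 19.4% of all features, median -0.51). The hydroxamates scriptaid and panobinostat each had 14 falling and 1 rising, with medians of -1.63 and -1.33, beside 22.7% and 12.6% of all features falling and 20.6% and 11.4% rising. Concentrations differed between all of these, so the values are given side by side and were not compared.

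The named rule took the 10 largest differences in each direction among well counted, non-overlapping features. On the tacedinaline side these were TK1, HTRA3, HIST1H3B, HIST1H3C, ASF1B, TTK, PRR20G, RRM2, MMP7 and HIST1H1B. Of these RRM2 is a member of the cell cycle list. TK1, thymidine kinase of the salvage pathway, was at 32.1, 25.8 and 21.9 CPM in tacedinaline C5 and had 0 counts in all 3 vorinostat C5 libraries. This was at least 13.0-fold higher against a floor of 3 counts per library (edgeR adjusted p = 1.141e-06). ASF1B, a chaperone that hands histones H3 and H4 to new DNA, was at 176, 159 and 256 CPM against 17.0, 19.1 and 19.3 CPM, a difference of 3.40 (SE 0.23, edgeR adjusted p = 7.527e-12). TTK, the kinase of the spindle checkpoint, was at 34.9, 51.9 and 34.5 CPM against 1.79, 6.18 and 2.58 CPM (3.40, SE 0.40). HTRA3, a secreted serine protease, was at 21.2, 24.6 and 50.6 CPM against 0, 0 and 1.29 CPM, the last from 2 counts. In each of these the lowest tacedinaline library was above the highest vorinostat library.

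Histone genes contributed a block of their own. Of 41 tested features whose symbols begin with HIST, a group chosen after the values were seen, 20 were higher in tacedinaline C5 and 0 in vorinostat C5, with a median of 0.90, beside 5.38% and 2.52% of all features called. In their own responses 23 fell and 5 rose with vorinostat, and 8 fell and 7 rose with tacedinaline. HIST1H3B, a replication-dependent histone H3, was at 30.5, 23.9 and 39.4 CPM in tacedinaline C5 and 5.37, 0.515 and 3.22 CPM in vorinostat C5. The linker histone HIST1H1B was at 80.1, 75.8 and 110 CPM against 9.84, 12.4 and 10.9 CPM. These histone genes are near-identical copies, so the assignment of counts to 1 of them is uncertain. Among 9 tested features of polyadenylated histone genes 4 were higher in tacedinaline C5, namely H2AFX, H2AFY, HIST1H1C and HIST1H2BD, and 0 were higher in vorinostat C5. H2AFX, the variant phosphorylated at DNA breaks, was at 436, 477 and 431 CPM against 173, 201 and 301 CPM (0.99, SE 0.15), after a change of 0.09 in tacedinaline and a fall of 1.03 in vorinostat.

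Centromere and motor proteins, also grouped by symbol after the values were seen, went the same way. Of 20 features of the CENP group 13 were higher in tacedinaline C5 and 0 in vorinostat C5 (median 1.63), and of 25 kinesins 9 and 0 (median 0.69). Over all features 5.38% and 2.52% were called in these directions, with a median of 0.01. KIF11, the motor that separates the spindle poles, fell in both responses and stood at 107, 108 and 122 CPM in tacedinaline C5 against 34.0, 33.5 and 33.5 CPM in vorinostat C5. FAM111B, a protease of replicating cells also chosen after its values were seen, was at 173, 225 and 223 CPM against 23.2, 31.4 and 25.8 CPM. Its level in tacedinaline C5 lay within 0.09 of C1 on the log2 scale, whereas it fell by 2.78 in vorinostat.

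In 18 features (0.154%) the chemicals moved in opposite directions with a called difference, and 17 of them rose with tacedinaline and fell with vorinostat. These were ASF1B, BLM, CENPQ, CEP128, DSN1, DTL (2 features), EXO1, FAM72C, GINS2, RAD18, REEP1, STMN1, TTK, WDR62, YEATS4 and ZNF114. BLM is a DNA helicase and EXO1 an exonuclease of repair, DTL directs replication factors to degradation, GINS2 belongs to the replicative helicase, and CENPQ and DSN1 sit at the kinetochore. BLM went from 31.1, 28.9 and 30.0 CPM at C1 to 81.7, 71.3 and 87.3 CPM at C5 of tacedinaline, and from 13.3, 21.9 and 42.1 CPM to 11.6, 7.21 and 18.7 CPM with vorinostat. The tacedinaline C5 values were above all others, and the difference of responses was 2.51 (SE 0.47, edgeR adjusted p = 0.0008253). EXO1 rose by 1.16 and fell by 1.19, so that its C5 levels of 122, 102 and 124 CPM with tacedinaline and 20.6, 17.0 and 30.9 CPM with vorinostat were apart by 2.34. GTF2IRD1, a transcription factor related to TFII-I, was the only feature that went the other way. It stood at 20.2, 28.8 and 26.0 CPM in tacedinaline C5 and 39.4, 48.9 and 38.0 CPM in vorinostat C5, but it did not pass the test between the C5 groups themselves (-0.75, SE 0.29, edgeR adjusted p = 0.09356).

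**Figure D4:**
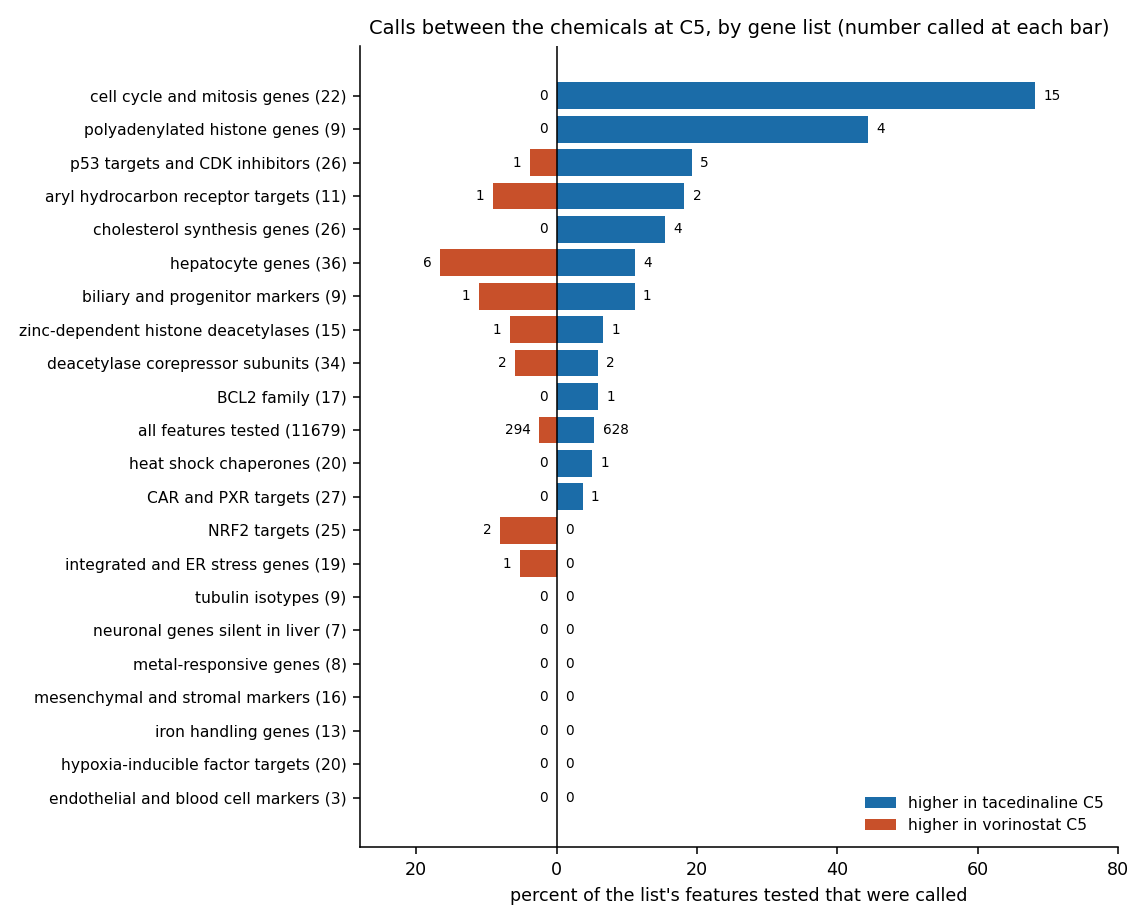
Percent of the tested features of each gene list that were called higher in tacedinaline C5 (blue, to the right) or in vorinostat C5 (red, to the left), with the number called at each bar and the number tested in brackets. The cell cycle list has 15 of 22 features higher in tacedinaline and 0 in vorinostat, beside 628 and 294 of all 11679 features, and several lists have 0 in both directions.

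By the same rule the features named as higher in vorinostat were LAPTM5, ABCC3, LENG8, RPS24, KLHL9, KANSL1L, MRPL2, SEPSECS, DOCK4 and CASC1. In the pair at 10.29 and 10.93 µM LAPTM5 (-1.40) and RPS24 (-1.42) were called too. Not called there were CASC1 (-1.49), MRPL2 (-1.44), SEPSECS (-0.48) and KANSL1L (-0.30). The same held for DOCK4 (-0.07), ABCC3 (-0.06), LENG8 (-0.01) and KLHL9 (0.00). LAPTM5, a lysosomal membrane protein, was at 14.2, 14.2 and 8.06 CPM in tacedinaline C5 and 42.9, 41.2 and 70.2 CPM in vorinostat C5. It rose in vorinostat by 2.62, and the values did not overlap (-2.08, SE 0.37, edgeR adjusted p = 0.0002359). ABCC3, an export pump for bile acid and drug conjugates, fell in both, from 202, 218 and 161 CPM to 1.09, 2.61 and 15.7 CPM with tacedinaline, and from 233, 246 and 175 CPM to 37.6, 28.9 and 17.4 CPM with vorinostat. The other features of the gene differed by -0.18 and -2.70 and did not pass the test. Calls were lost without batch 1 for ABCC3 (-1.41), MRPL2 (-1.76), SEPSECS (-1.53), DOCK4 (-1.58) and CASC1 (-1.40), without batch 2 for ABCC3 (-1.57), KLHL9 (-1.55), MRPL2 (-1.15), SEPSECS (-1.61) and DOCK4 (-1.62), and without batch 3 for KLHL9 (-1.59) and DOCK4 (-1.57).

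RPS24, a protein of the small ribosomal subunit with known splice forms, was read by 2 tested features. The first was at 40.3, 40.7 and 33.1 CPM in tacedinaline C5 and at 132, 140 and 125 CPM in vorinostat C5, against 35.4 to 44.3 CPM at C1 of vorinostat. The vorinostat C5 values stood far above all others (-1.80, SE 0.21, edgeR adjusted p = 1.692e-07), and over C1 to C5 of vorinostat the mean went from 40.9 through 56.2, 70.9 and 106 to 131 CPM. The other feature of the gene differed by -0.09 and was not called. Among 33 tested features of the RPS group 13 rose in vorinostat and 5 in tacedinaline, and among 32 of the RPL group 14 and 5, beside 21.8% and 18.2% of all features, both groups having been chosen after the values were seen. Between the C5 groups 4 RPS features and 1 RPL feature were higher in vorinostat, beside 2.52% of all features. In tacedinaline 0 and 1 were higher, beside 5.38%. RPS6, which contacts the messenger RNA path, was at 646, 643 and 637 CPM in tacedinaline C5 and 993, 974 and 1004 CPM in vorinostat C5 (-0.62, SE 0.11).

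Some regulators were also higher in vorinostat C5, all named after their values were seen. FOXO1, a transcription factor held in the cytoplasm by insulin signals, was at 463, 413 and 349 CPM in tacedinaline C5 and 778, 726 and 736 CPM in vorinostat C5. It rose in vorinostat by 1.13, and in tacedinaline its change was 0.07. NR3C1, the glucocorticoid receptor, was at 58.8, 58.2 and 40.7 CPM against 122, 68.5 and 118 CPM (-0.96, SE 0.23). TSC22D3 and DUSP1, known glucocorticoid targets, differed by -0.75 and, in the called one of 2 features, by -0.65. AKR1C2, an aldo-keto reductase of steroids, rose in vorinostat to 894, 1096 and 1322 CPM and stood at 546, 609 and 615 CPM in tacedinaline C5 (-0.90, SE 0.14). In none of these 5 genes did the C5 values of the chemicals overlap. In the pair at 10.29 and 10.93 µM none was called, with FOXO1 at -0.37, AKR1C2 at -0.37 and this DUSP1 feature at -0.34. NR3C1 was at -0.17 there and TSC22D3 at -0.09.

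Hepatocyte genes fell under both chemicals, and at C5 their direction between the chemicals depended on the gene. Of 36 tested features 34 fell in tacedinaline and 35 in vorinostat, beside 20.4% and 24.7% of all features. Between C5 groups 4 were higher in tacedinaline and 6 in vorinostat, beside 5.38% and 2.52%, with a median of 0.00. With genes at the detection floor set to their bound, the medians were -3.99 and -3.51 for the own changes and -0.34 between C5 groups. Summed levels overlapped at C5, with 5894 ± 917 CPM in tacedinaline and 6665 ± 2124 CPM in vorinostat (SD, n = 3).

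The members that differed were mostly secreted proteins. HP, haptoglobin, fell from 20780, 18590 and 16400 CPM to 1214, 1070 and 1145 CPM with tacedinaline, and from 11500, 15270 and 12490 CPM to 413, 367 and 193 CPM with vorinostat. Its C5 values were apart by 1.82 (SE 0.16, edgeR adjusted p = 5.525e-10). FGB (fibrinogen beta chain), APOB (the apolipoprotein of very low density lipoprotein) and F2 (prothrombin) were also higher in tacedinaline C5, by 0.94, 0.96 and 1.04. ALB, albumin, went the other way, with 1440, 1500 and 874 CPM in tacedinaline C5 and 2737, 2802 and 1619 CPM in vorinostat C5. These ranges did not overlap (-0.91, SE 0.17, edgeR adjusted p = 0.0003411). TTR (transthyretin), CYP2E1, TAT (tyrosine aminotransferase) and CPS1 (the first enzyme of the urea cycle) were likewise higher in vorinostat, of which TAT had means under 5 CPM in both groups. For TTR 1 vorinostat library, at 995 CPM, lay within the tacedinaline range of 939 to 1183 CPM. In the pair at 10.29 and 10.93 µM HP differed by 2.59, FGB by 1.43, APOB by 0.95 and TTR by -0.76, all called. ALB differed by 0.06 there and was not called.

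Acute phase proteins were examined further after the difference in HP was seen. LBP, the lipopolysaccharide binding protein, was at 148, 126 and 126 CPM in tacedinaline C5 and at 43.8, 32.5 and 27.7 CPM in vorinostat C5 (1.97, SE 0.17). SAA1 and SAA2, serum amyloid A proteins, were higher in tacedinaline C5 by 0.97 and 0.92. SAA1 had been higher already at C1, at 1381, 1042 and 1070 CPM against 362, 396 and 377 CPM, and its response differed between the chemicals by -0.65 without a call. SAA2 had likewise been higher at C1, at 5752, 4832 and 4148 CPM against 1711, 2438 and 1847 CPM. Its response differed by -0.38 without a call. SAA1 and SAA2 are near-identical, and counts may be shared between them. Higher in vorinostat C5 were complement component C3, at 122, 73.9 and 102 CPM against 134, 204 and 181 CPM (-0.82, SE 0.16), and AMBP (-0.59, SE 0.13). GC, the vitamin D binding protein, and AGT, angiotensinogen, were also higher in vorinostat C5, by 1.51 and 1.06 on the log2 scale. AGT was at 34.3, 45.5 and 36.3 CPM against 85.9, 82.9 and 74.7 CPM, without overlap.

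At nearly equal concentrations 42 features of the hepatocyte list were tested. At 1.143 and 1.214 µM 1 was higher in tacedinaline and 0 in vorinostat. In the other pairs 18 were higher in tacedinaline and 1 in vorinostat at 3.43 and 3.643 µM, and 14 and 1 at 10.29 and 10.93 µM. Their summed level was 24500, 28340 and 22550 CPM in tacedinaline C3 and 18630, 15380 and 19310 CPM in vorinostat C4. Targets of the xenobiotic receptors CAR and PXR gave 7, 11 and 8 of 28 features higher in tacedinaline and 0, 0 and 1 in vorinostat over the 3 pairs. Among all features tested in these pairs, 0.805%, 2.51% and 3.74% were higher in tacedinaline. In vorinostat the shares were 0.211%, 0.953% and 1.05%. At C5 1 of 27 such features was called.

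Of 15 tested features of the deacetylases themselves 1 was higher in tacedinaline C5 and 1 in vorinostat C5, beside 5.38% and 2.52% of all features. HDAC2 was at 638, 598 and 548 CPM in tacedinaline C5 and 550, 583 and 762 CPM in vorinostat C5. These overlapped, with a difference of -0.09 (95% interval -0.34 to 0.16), and HDAC2 had risen in both, by 0.93 and 1.12. HDAC3 rose by 2.17 and 2.26 to 296, 286 and 256 CPM and to 252, 254 and 258 CPM, a difference of 0.13 (-0.22 to 0.48). The main feature of HDAC6, at 278, 311 and 271 CPM against 318, 387 and 318 CPM, fell by 1.19 and 1.21 and differed between C5 groups by -0.25 (-0.53 to 0.02), which did not pass the test. HDAC1 (0.54, -0.18 to 1.25) was not called in any contrast. HDAC8 was higher in tacedinaline, at 22.3, 27.6 and 29.5 CPM against 11.6, 8.76 and 12.9 CPM (1.27, SE 0.36, edgeR adjusted p = 0.01991), and HDAC7 was higher in vorinostat with no value above 6 CPM in any of the 6 libraries. Both calls rested on few counts. HDAC8 lost its call without any 1 of batches 1, 2 and 3 (1.42, 1.08 and 1.32), and HDAC7 without batch 1 (edgeR adjusted p = 0.05951) and without batch 2 (edgeR adjusted p = 0.1931).

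Subunits of the deacetylase corepressor complexes gave 2 calls in each direction among 34 features. Over all features 5.38% were higher in tacedinaline C5 and 2.52% in vorinostat C5. DNTTIP1, a subunit of the mitotic deacetylase complex, was higher in tacedinaline by 0.75 in 1 of its features, with overlapping values, and the call was lost without batch 1 (0.59) and without batch 3 (0.44). MIER1, a corepressor that recruits HDAC1 and HDAC2, gave both calls on the vorinostat side, in 2 of its 3 features. The leading one was at 88.2, 134 and 101 CPM against 195, 231 and 236 CPM (-1.03, SE 0.19), and the third feature differed by -0.13 and was not called.

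In the metal-responsive and iron handling lists no feature was called between the C5 groups or in the difference of responses. Of 8 metal-responsive features 7 rose in each chemical, beside 18.2% of all features in tacedinaline and 21.8% in vorinostat, among them MT1E, a metallothionein that binds zinc and copper. MT1E reached 200, 183 and 198 CPM in tacedinaline C5 and 185, 243 and 276 CPM in vorinostat C5, which overlapped (-0.28, 95% interval -0.62 to 0.06). Of 13 iron handling features 12 fell in tacedinaline and 11 in vorinostat, beside 20.4% and 24.7% of all features. TF, transferrin, was at 209, 186 and 116 CPM against 345, 190 and 158 CPM at C5 (-0.42, -0.82 to -0.03, edgeR adjusted p = 0.1822). These counts do not show that the chemicals act alike, since the interval of MT1E, for one, reaches the size of the call threshold. Among 16 mesenchymal and stromal features 0 were called between the C5 groups. Of neuronal genes silent in liver 7 of 37 features in the table passed the filter on low counts, in part through the C5 libraries in which they were high, so no count of rises is drawn from them, and 0 of the 7 were called between the C5 groups.

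Targets of the hypoxia-inducible factors, which act under low oxygen, had 0 of 20 features called between the C5 groups, but 3 of the 20 had the higher response in vorinostat, beside 1.76% of all features. These were NDRG1, a stress-induced protein, with a difference of responses of -0.79 (SE 0.21), and both features of EGLN3, an oxygen sensing prolyl hydroxylase, with -0.87 (SE 0.20) and -0.91 (SE 0.25). In vorinostat 7 of the list rose and 2 fell, beside 21.8% and 24.7% of all features. In tacedinaline 1 rose and 3 fell, beside 18.2% and 20.4%. The summed level was 1527, 1431 and 1584 CPM at C1 and 1280, 1296 and 1230 CPM at C5 of tacedinaline, and 1216, 1232 and 1374 CPM and then 1562, 1518 and 1556 CPM with vorinostat. The C5 sums lay below all C1 sums in tacedinaline and above all C1 sums in vorinostat. Of 9 tubulin features 0 were called between the C5 groups and 1, of TUBA4A, in the difference of responses (-0.78, SE 0.16).

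In the stress lists the calls between C5 groups are to be read beside the 7.89% of all features that were called. HSP90AA1, the inducible cytosolic HSP90 chaperone, whose protein is a known substrate of HDAC6, was the 1 of 20 heat shock features called between C5 groups. It was at 521, 567 and 566 CPM in tacedinaline C5 and 327, 303.4 and 301 CPM in vorinostat C5, having risen by 0.76 in tacedinaline, with a change of -0.21 in vorinostat that was not called. The difference was 0.83 (SE 0.13, edgeR adjusted p = 5.837e-05). In the pair at 10.29 and 10.93 µM it was -0.02 (SE 0.15) and was not called. Among 19 features of the integrated and endoplasmic reticulum stress response SEL1L, an adaptor of protein degradation at that membrane, was higher in vorinostat (-0.93, SE 0.20). Among 25 targets of NRF2 the ABCC3 feature and AKR1C1 (-0.59, SE 0.17) were higher in vorinostat. SEL1L lost its call without batch 1 (-0.74), and AKR1C1 without batches 1, 2 and 3 in turn (-0.71, -0.67 and -0.35).

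Of 26 features of a list of p53 targets and CDK inhibitors 12 fell and 2 rose in tacedinaline, beside 20.4% and 18.2% of all features. In vorinostat 17 fell and 3 rose, beside 24.7% and 21.8%. Between C5 groups 5 were higher in tacedinaline, namely DDB2, GDF15, TNFRSF10B and 2 features of MDM2, and ZMAT3 was higher in vorinostat. Over all features 5.38% and 2.52% were called in these directions. MDM2, the ubiquitin ligase that removes p53, had a feature at 69.2, 66.1 and 79.6 CPM against 43.8, 48.9 and 39.3 CPM (0.69, SE 0.16), after falls of 2.83 and 3.15. ZMAT3, a zinc finger RNA binding protein, was at 23.4, 13.4 and 33.1 CPM against 68.9, 54.6 and 43.8 CPM (-1.26, SE 0.26). Its fall of 2.08 in tacedinaline and of 0.62 in vorinostat differed by -1.47 (edgeR adjusted p = 0.008425). Between C5 groups ZMAT3 lost its call without batch 1 (-1.10) and without batch 2 (-0.97), and both MDM2 features lost theirs without batch 3 (0.53 and 1.13).

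Of the cholesterol synthesis list 4 of 26 features were higher in tacedinaline C5 and 0 in vorinostat C5, beside 5.38% and 2.52% of all features. In the difference of responses 0 of the 26 were called. At C1 21 of them already had a positive estimate (median 0.20, beside 0.27 at C5). INSIG1, the sterol sensor of the endoplasmic reticulum, was at 168, 120 and 230 CPM against 88.5, 79.3 and 92.7 CPM, without overlap (0.99, SE 0.17). It had been higher at C1 too, by 0.80, and the responses themselves differed by 0.19 without a call. EBP, a sterol isomerase, was also higher in tacedinaline, by 1.25. Targets of the aryl hydrocarbon receptor were split, with ALDH3A1 and UGT1A6 higher in tacedinaline (1.14 and 1.07) and TIPARP, a mono-ADP-ribosyltransferase, higher in vorinostat. TIPARP rose in vorinostat by 1.60, to 263, 272 and 264 CPM, and was at 168, 183 and 137 CPM in tacedinaline C5, where its change of 0.56 was not called (-0.71 between the groups, SE 0.15). Among 17 features of the BCL2 family BID, which links death receptors to mitochondria, was called in 1 of 2 features, with 4.90, 4.85 and 1.79 CPM in tacedinaline C5 and 0 counts in vorinostat C5, at least 1.87-fold higher against the floor of 3 counts per library. Calls were lost without batch 1 for EBP (0.85), ALDH3A1 (0.79) and BID (edgeR adjusted p = 0.05096), and without batch 2 for BID (edgeR adjusted p = 0.0944).

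TIMP1, MMP7 and the keratins were also higher in tacedinaline C5, of which TIMP1 and the keratin group were chosen after the values were seen. TIMP1, an inhibitor of matrix metalloproteinases, rose in tacedinaline from 1577, 1090 and 1401 CPM to 6030, 4485 and 5639 CPM. In vorinostat it rose from 1053, 901 and 1053 CPM to 1721, 1721 and 1414 CPM. The C5 levels were apart by 1.73 (SE 0.13, edgeR adjusted p = 1.99e-11), the responses by 1.30 (SE 0.17), and its second feature gave 1.77. MMP7, a metalloproteinase of epithelia, fell in both and was at 190, 118 and 117 CPM in tacedinaline C5 against 28.6, 12.9 and 13.5 CPM in vorinostat C5. It had been higher at C1 by 1.09, and its responses differed by 1.93 (SE 0.33). Of 13 features of keratins 7 were higher in tacedinaline C5 and 0 in vorinostat C5 (median 1.17), beside 5.38% and 2.52% of all features (median 0.01). Among the 7 was KRT8, a keratin of simple epithelia, at 478, 388 and 468 CPM against 205, 175 and 219 CPM. The biliary marker KRT19 was higher in tacedinaline in 1 of its 2 features, at 23.4, 26.9 and 31.8 CPM against 11.6, 9.27 and 8.37 CPM (1.5, SE 0.43). The other, at 18.5, 51.5 and 58.2 CPM against 29.5, 13.9 and 21.2 CPM, overlapped (1.04, SE 0.34, edgeR adjusted p = 0.05106). The first KRT19 feature lost its call without batches 1, 2 and 3 in turn (1.73, 1.48 and 1.28). Summed over its 2 features KRT19 averaged 70.1 CPM in tacedinaline C5 and 31.3 CPM in vorinostat C5, while SOX9, also of biliary and progenitor cells, averaged 46.8 and 50.4 CPM. The biliary marker MUC1 was called higher in vorinostat with means of 0 and 2.06 CPM, a call that was lost without batches 1, 2 and 3 in turn (edgeR adjusted p = 0.08415, 0.1421 and 0.4483). The part of a changed cell mixture in these differences was not tested.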

How the data were processed

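Whole transcriptome TempO-Seq counts of HepaRG lysates were used as the authors deposited them, as raw read counts per probe feature for 118 libraries in 1 table. Per the labels, the submitters' processing notes name bcl2fastq 2.20.422, fastp 0.23.2, STAR 2.7.10b and DESeq2 1.38.0, while the genome build and probe manifest are not given in the sources used here. Of 22069 rows, 1 had no value in 88 libraries and was left out. Libraries were grouped by their labelled chemical and concentration. The 12 libraries of C1 and C5 were filtered with filterByExpr, scaled with TMM and fitted with edgeR 4.0.16 (R 4.3.3, limma 3.58.1) as 4 group means without a batch term, and p-values were adjusted over all 11679 features. The same number marks the same HepaRG batch per the labels, so the numbers pair the libraries. Deviations of same-batch libraries from their group means correlated with a median of 0.00836 over 18 pairs (-0.0189 to 0.165), against -0.0057 over 36 pairs of different batches. CPM used TMM-scaled totals, within-batch differences used log2 CPM with a prior count of 2, and intervals are 95%. The counted reads were amplified and carry no molecular identifiers, so floors of 3 counts cover counting error only. On simulated counts with planted changes between the C5 groups, 45 of 100 features changed 2-fold and 78 of 100 changed 4-fold were recovered, with 8 false calls among 11311.

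Named features were the 10 largest called, non-overlapping differences in each direction with a mean of at least 20 CPM in the higher group, the leading opposite and shared changes, the deacetylases, and the 3 features of smallest p in each list. Genes described as grouped or named after their values were seen, and further members of the lists, fall outside this rule. Groups, members and lists were chosen with earlier results of these data known. Symbols are those of the table, of which 19353 of 19470 matched RefSeq. Some genes of these lists are not reported here by name.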

Additional observations from a re-analysis of the deposited data

Results flagged for a closer look

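The response from C1 to C5 differed between tacedinaline and vorinostat, by a test of the difference itself, in 567 features (edgeR, Benjamini-Hochberg adjusted). Among those that moved in opposite directions the differences of response, tacedinaline minus vorinostat on the log2 scale, were 3.85 for TTK, 3.49 for ASF1B and 3.30 for DSN1, all of which rose with tacedinaline and fell with vorinostat. For GTF2IRD1, which fell with tacedinaline and rose with vorinostat, it was -1.45.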

How the results depend on the processing

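No named feature reversed between the C5 groups in any of the 10 alternatives tried. Without a filter on low counts the C1 groups gave 142 calls in place of 89, and without a minimum fold 35 features were called in opposite directions in place of 18. The cause was not tested. Leaving out 1 batch in all groups gave 477 to 646 calls between the C5 groups (922 with all) and 187 to 397 in the difference of responses (567). It gave 10 to 67 at C1 (89), 6 to 13 in opposite directions (18) and 449 to 981 in the pairs of nearly equal concentration (1186). These fits held fewer libraries, and the cause of the lower counts was not tested. Counts moved by over 1.5 times without batch 1 (477, 187, 20, 6 and 727) and without batch 2 (543, 214, 10, 9 and 449). The own responses gave 3610 to 4106 calls for tacedinaline (4512) and 4519 to 4846 for vorinostat (5435), of which 2702 to 3070 were shared (3497). The cell cycle list gave 13 to 15 calls (15), in alternatives chosen after seeing the data. With the replicate block the counts were 947 between C5 groups, 4478 and 5390 for the own responses, 652 for their difference, 110 at C1, 18 in opposite directions and 15 for the cell cycle list, so the pairing moved no count by over 1.5 times. DESeq2 called 1027 between C5 groups, and counts thinned to the smallest total of 1061359 called 791. Upper-quartile scaling turned the split of rising and falling calls to 2344 and 2239 in tacedinaline and 2774 and 2692 in vorinostat. Of 50 named features called between C5 groups 29 kept the call in every alternative and 21 lost it in at least 1, 6 of them (MUC1, PRR20G, AKR1C1, HDAC8 and KRT19 among them) in alternatives other than leaving out a batch. Depth limits what can be said of features of a few CPM, where 1 count in the smallest library is close to 1 CPM.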
